A study of Mus musculus with 10 samples.

Results

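The genes described here are 10 of the TNF (tumor necrosis factor) and TNF receptor superfamily, 4 ligands (Tnf, Tnfsf8, Tnfsf10 and Tnfsf12) and 6 receptors (Tnfrsf1a, Tnfrsf1b, Ltbr, Fas, Cd40 and Tnfrsf11a). They were found by gene symbol among the 56884 genes of the count table, and each matched 1 row. Bulk RNA-seq was performed on the hippocampus of 10 female P301S (PS19) mice, with 1 library per mouse. All of these mice carried human 1N4R Tau with the P301S mutation, driven by the mouse Prnp promoter, and were ovary-intact. At 6 months of age, 5 mice received a subcutaneous SILASTIC implant with 10 mm of DHT (dihydrotestosterone, an androgen that aromatase cannot turn into estrogen), and 5 received a void implant. Hippocampi were taken after 12 weeks, at 9 to 9.5 months. The comparison asks how DHT-treated females differed from void-treated females, and no group without the transgene was included.

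Ligands of this superfamily act as trimers, on the cell surface or after shedding, and cluster trimeric receptors. Some receptors, Tnfrsf1a and Fas among them, carry a cytoplasmic death domain that can recruit FADD and caspase 8, while Tnfrsf1b, Ltbr, Cd40 and Tnfrsf11a bind TRAF adaptors that lead to NF-kB. In brain, TNF comes chiefly from microglia, Tnfrsf1a is found on most cell types, and Tnfrsf1b is prominent on microglia.

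The void libraries held 27188854 to 47113661 counts each and the DHT libraries 33523527 to 45947784. Levels are given as CPM, counts scaled to the library total after edgeR's TMM normalization. A gene was called where edgeR's quasi-likelihood test over 17622 genes gave an adjusted p (Benjamini-Hochberg) under 0.05, and SE is the standard error of a log2 fold change. Hippocampal neuron markers were well detected (5 of 5 tested, none called), with a summed level of 1064 to 1583 CPM in void-treated and 1290 to 1620 CPM in DHT-treated mice. Of 15 microglia markers, 8 were called higher, and their sum was 572 to 672 CPM with void and 809 to 1231 CPM with DHT. Of 12 choroid plexus markers, 4 were called higher, and their sum was 130 to 1916 CPM with void and 2178 to 3080 CPM with DHT. Of 7 astrocyte markers, 1 was called higher, Gfap, at 335 to 559 CPM with void and 644 to 1349 CPM with DHT, and of 6 meningeal fibroblast markers, 1 was called higher, Igf2. The astrocyte sum was 5772 to 8112 CPM with void and 6614 to 8374 CPM with DHT. No marker of endothelial cells, mural cells, oligodendrocytes, neurons, border macrophages, T cells, B cells, or neutrophils and monocytes was called in either direction by edgeR, and most of the T cell, B cell, and neutrophil and monocyte markers were under the filter. At an unadjusted p under 0.05, 12 of 12 choroid plexus, 13 of 15 microglia, 3 of 7 astrocyte and 1 of 6 meningeal fibroblast markers were higher. So were 2 of 6 oligodendrocyte markers and the T cell marker Lck, and 2316 of all 17622 genes. In bulk tissue, more cells of a type and more RNA per cell cannot be told apart. The S numbers in the sample titles ran from 4 to 11 for void-treated mice and from 18 to 23 for DHT-treated mice. The titles do not say what these numbers stand for. If they mark an order of handling, that order and treatment cannot be told apart.

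DHT-treated females had more RNA for 3 receptors of the TNF and lymphotoxin branch, Tnfrsf1a, Tnfrsf1b and Ltbr, each by 1.55- to 1.73-fold. No member was called lower. The ligands Tnfsf10 and Tnfsf12 and the receptor Tnfrsf11a were tested and did not pass. Tnf and Tnfsf8 were near the limit of detection with void and higher in every DHT-treated mouse. Among the 10 members, 7 passed edgeR's filter on low counts (about 0.292 CPM in at least 5 libraries), and Tnf, Cd40 and Tnfsf8 did not. Of the 7 members tested, 3 were called higher, where 5.22% of all tested genes were, and 0 were called lower, where 0.261% of all tested genes were. At an unadjusted p under 0.05, 4 of the 7 were higher and 0 lower, as were 2316 and 743 of the 17622 genes. DESeq2 also called 0 members lower. None of these 7 members reached a log2 fold change of 1, a limit that 2.17% of all tested genes passed together with the adjusted p.

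**Figure D1:**
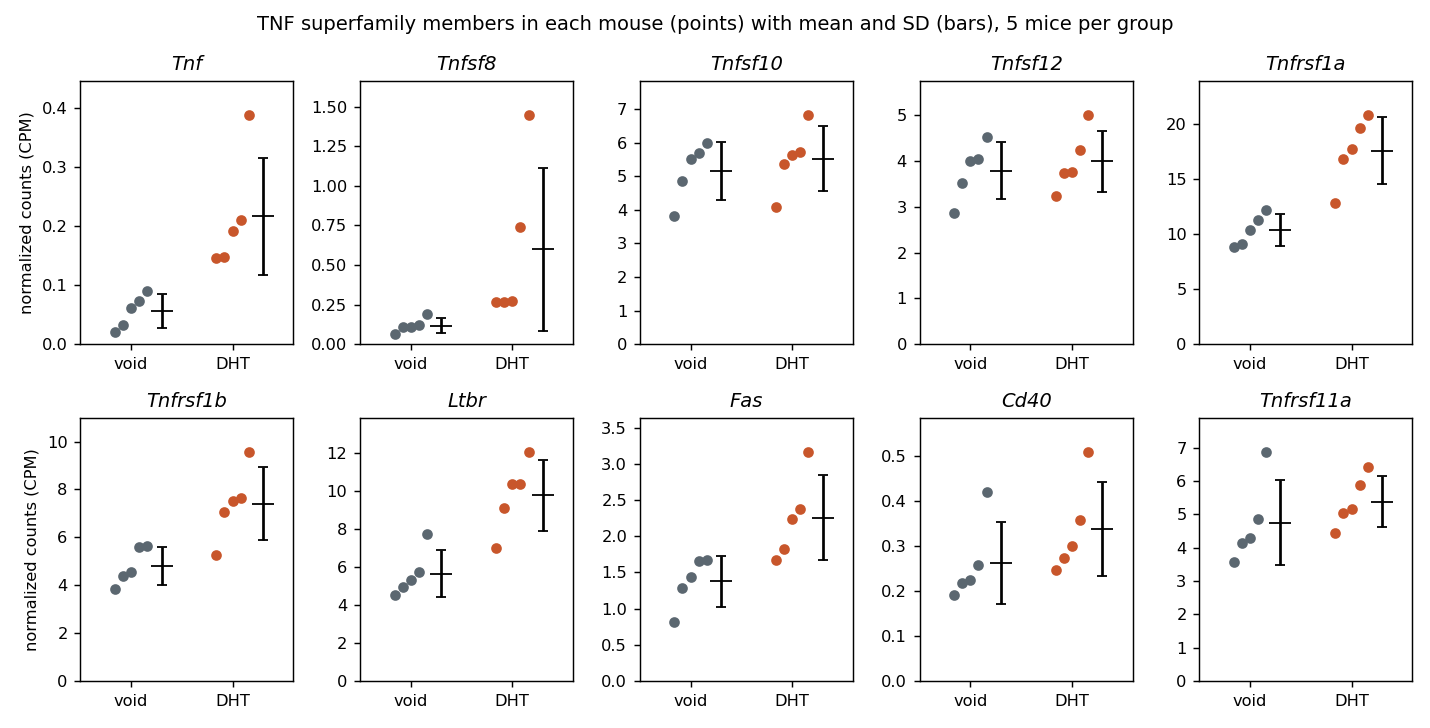
Normalized counts (CPM, linear axes from 0) of the 10 members in each of 5 void-treated (grey) and 5 DHT-treated (orange) mice, with mean and SD beside the points. Tnfrsf1a, Tnf and Tnfsf8 are the 3 members whose groups do not overlap, while the groups of Tnfsf10, Tnfsf12 and Tnfrsf11a lie over each other. A separation with DHT higher was seen in 5.39% of all tested genes and in 2.99% of genes with at least 1 count.

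Tnfrsf1a encodes TNFR1, the death domain receptor for soluble TNF and lymphotoxin alpha. Its level in void replicates 10, 11, 4, 5 and 9 was 11.3, 9.05, 8.82, 10.4 and 12.2 CPM. In DHT replicates 1, 2, 3, 5 and 6 it was 20.7, 12.8, 19.6, 17.7 and 16.8 CPM. Every DHT-treated mouse was above every void-treated mouse, although DHT replicate 2 was only slightly above void replicate 9, and such a separation upward was seen in 5.39% of all tested genes. None of the 7 members tested was separated downward, where 0.880% of all tested genes were. Tnfrsf1a rose from 10.3 ± 1.43 to 17.5 ± 3.06 CPM (SD, n = 5 each). Its log2 fold change was 0.76 (SE 0.14, edgeR adjusted p = 0.00992), and it was called in all 10 fits that left out 1 mouse, with log2 fold changes of 0.66 to 0.86.

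Ltbr encodes the lymphotoxin beta receptor, which binds membrane lymphotoxin and LIGHT and signals to noncanonical NF-kB. The void replicates 10, 11, 4, 5 and 9 had 5.72, 4.97, 4.52, 5.30 and 7.76 CPM. The DHT replicates 1, 2, 3, 5 and 6 had 10.4, 7.01, 9.11, 10.4 and 12.1 CPM. The groups overlapped only where void replicate 9 exceeded DHT replicate 2. Ltbr rose from 5.66 ± 1.25 to 9.78 ± 1.87 CPM (SD, n = 5 each), by 0.79 on the log2 scale (SE 0.17, edgeR adjusted p = 0.0196). The call was lost without void replicate 11, void replicate 4 or DHT replicate 1, with adjusted p between 0.0571 and 0.0691.

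Tnfrsf1b encodes TNFR2, which lacks a death domain and responds mainly to membrane-bound TNF. Its void values were 4.54, 4.40, 3.83, 5.62 and 5.58 CPM in replicates 10, 11, 4, 5 and 9. Its DHT values were 9.56, 5.28, 7.04, 7.63 and 7.53 CPM in replicates 1, 2, 3, 5 and 6. DHT replicate 2 lay within the void range and the other 4 DHT-treated mice above it. Tnfrsf1b rose from 4.80 ± 0.785 to 7.41 ± 1.53 CPM (SD, n = 5 each), by 0.63 on the log2 scale (SE 0.16, edgeR adjusted p = 0.0420). This was the least firm of the 3 calls. It held in 3 of 10 fits with 1 mouse left out, and was lost without void replicates 10, 11 or 4 or DHT replicates 1, 3, 5 or 6, with adjusted p between 0.0749 and 0.132.

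Fas encodes the death receptor for Fas ligand. Its level was 1.44, 0.809, 1.29, 1.66 and 1.68 CPM in void replicates 10, 11, 4, 5 and 9. With DHT it was 2.38, 1.83, 3.16, 2.24 and 1.67 CPM in replicates 1, 2, 3, 5 and 6. Only DHT replicate 6 lay within the void range. The log2 fold change of 0.72 was close to those of the called receptors, but its SE was 0.23 and its edgeR adjusted p 0.0967, so Fas did not pass. DESeq2 gave a log2 fold change of 0.70 with an adjusted p of 0.0436.

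Tnfrsf11a encodes RANK, the receptor for RANKL. It was at 4.75 ± 1.27 CPM with void and 5.39 ± 0.774 CPM with DHT (SD, n = 5 each), and no DHT-treated mouse exceeded the highest void-treated mouse, void replicate 5 at 6.87 CPM. The log2 fold change was 0.18 (SE 0.17, edgeR adjusted p = 0.671). Cd40, the costimulatory receptor of antigen-presenting cells, had 44 counts in all void and 63 in all DHT libraries. Its level was 0.190 to 0.419 CPM with void and 0.247 to 0.509 CPM with DHT, and the groups overlapped. In an edgeR fit over the 35326 genes with at least 1 count, its log2 fold change was 0.34 (SE 0.33, edgeR adjusted p = 0.661).

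Tnf itself had between 1 and 3 counts in each void-treated mouse and between 6 and 13 in each DHT-treated mouse, 9 counts against 40 in total. In void replicates 10, 11, 4, 5 and 9 this was 0.0738, 0.0899, 0.0211, 0.0320 and 0.0620 CPM. In DHT replicates 1, 2, 3, 5 and 6 it was 0.191, 0.148, 0.147, 0.209 and 0.387 CPM. The groups did not overlap, a separation found in 2.99% of genes with at least 1 count, and DHT replicate 6 stood well above the rest. Over those genes, edgeR gave Tnf a log2 fold change of 1.92 (SE 0.49, edgeR adjusted p = 0.0417), where 2.69% of genes were called higher. DESeq2 gave 1.97 with an adjusted p of 0.0542. With 1 mouse left out of that edgeR fit, Tnf passed in 2 of 10 fits (without DHT replicate 2 or 3), the log2 fold change ranged from 1.62 to 2.14, and the adjusted p reached 0.144.

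Tnfsf8 encodes CD30 ligand, which is made by activated T cells and myeloid cells. It was at 0.111, 0.120, 0.106, 0.192 and 0.0620 CPM in void replicates 10, 11, 4, 5 and 9. In DHT replicates 1, 2, 3, 5 and 6 it was 0.738, 0.271, 1.45, 0.269 and 0.268 CPM, or 27, 11, 69, 9 and 9 counts. DHT replicates 1 and 3 were far above the other 3 DHT-treated mice, which were themselves above every void-treated mouse. Of genes with at least 1 count, 2.99% had DHT-treated mice all above the void-treated mice. The summed level of 6 T cell markers was also highest in DHT replicates 3 and 1, 2.79 and 2.65 CPM, against 1.83 to 2.38 CPM in the other DHT-treated and 1.18 to 1.66 CPM in the void-treated mice. Most of that sum was Lck, which was lowest among DHT-treated mice in DHT replicate 1 (1.45 CPM) and highest in DHT replicate 6 (1.73 CPM). Cd3e, Cd3d, Cd3g, Cd8a and Cd2 without Lck summed to 1.20 CPM in DHT replicate 1 and 1.07 CPM in DHT replicate 3, against 0.359 to 0.655 CPM in the other DHT-treated and 0.0369 to 0.352 CPM in the void-treated mice. Of these, Cd2 was lowest of the DHT-treated mice in DHT replicate 1. The T cell markers were compared with Tnfsf8 after their values were seen. They were not alone in this order, since Vcam1 and Gfap were also highest in DHT replicates 1 and 3. The microglia marker sum was highest in DHT replicates 1 and 5. The part of T cells or other cells in the Tnfsf8 level was not tested. In the fit over genes with at least 1 count, the log2 fold change of Tnfsf8 was 2.35 (SE 0.53, edgeR adjusted p = 0.0176). It passed in 10 of 10 such fits with 1 mouse left out, with values of 1.68 (without DHT replicate 3) to 2.57 on the log2 scale.

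The other ligands of the 10 did not pass the test. Tnfsf10 encodes TRAIL, a ligand that induces apoptosis. It was at 5.17 ± 0.862 CPM with void and 5.52 ± 0.970 CPM with DHT (SD, n = 5 each), and the difference on the log2 scale was 0.10 (SE 0.15, edgeR adjusted p = 0.829). Tnfsf12 encodes TWEAK and was at 3.79 ± 0.629 and 3.999 ± 0.666 CPM, 0.08 apart on the log2 scale (SE 0.15, edgeR adjusted p = 0.872). In the reference annotation, 48.3% of its exon bases are shared with the fused gene Tnfsfm13 on the same strand, so its reads may have been divided or left out in counting. For both ligands, a single DHT-treated mouse was above the void range and a single void-treated mouse was below the DHT range.

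Levels of different genes were compared per kilobase of exon, with exon lengths from GENCODE M21. Among void-treated mice, Tnfrsf1a was the highest member at 3.99 ± 0.553 CPM per kilobase (SD, n = 5), above Tnfsf12 at 2.50 ± 0.415 and Ltbr at 2.40 ± 0.532, whose ranges overlapped each other. Then came Tnfrsf1b, Tnfsf10, Tnfrsf11a and Fas, from 1.26 down to 0.667 CPM per kilobase, each overlapping the next. Cd40, Tnf and Tnfsf8 followed at 0.0769, 0.0340 and 0.0310 CPM per kilobase, the last pair overlapping. Among DHT-treated mice, Ltbr at 4.16 ± 0.795 CPM per kilobase stood above Tnfsf12 at 2.64 ± 0.440, and Cd40 was last at 0.0990 ± 0.0306, yet most neighbours in this order overlapped. The gap between Tnfrsf11a and Tnfsf8 was the exception. In both groups, the TNF receptor Tnfrsf1a was the highest member and its ligand Tnf was among the lowest 3.

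**Figure D2:**
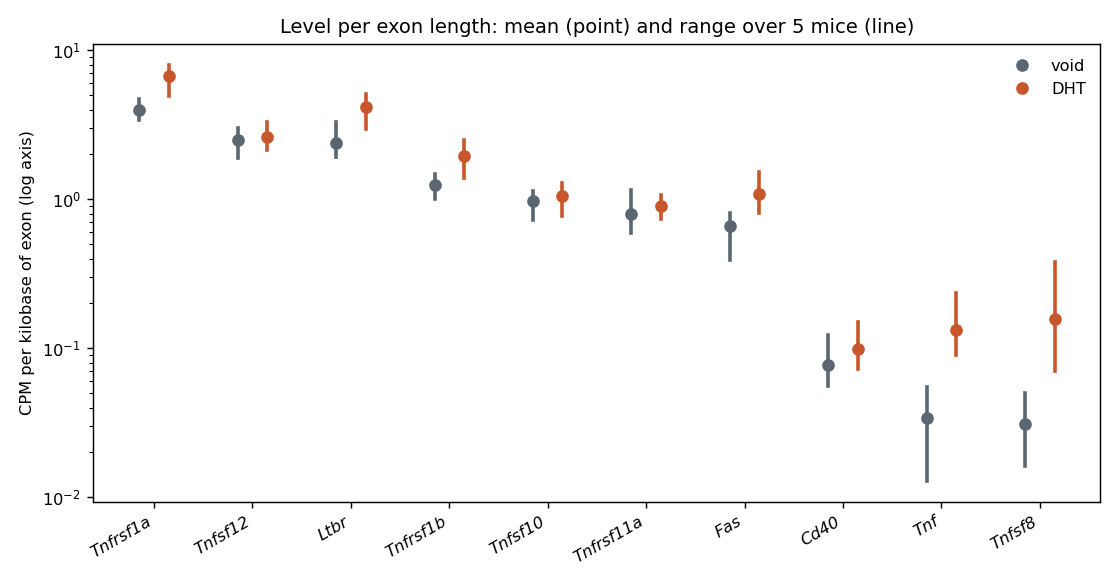
Level of each member in CPM per kilobase of exon (log axis), with the mean (point) and the range over 5 mice (line) for void (grey) and DHT (orange). Members are ordered by their void mean, from Tnfrsf1a at 3.99 to Tnfsf8 at 0.0310 CPM per kilobase, and the ranges of Tnfrsf1a, Tnf and Tnfsf8 do not overlap between the groups. Such a separation upward was seen in 5.39% of all tested genes and in 2.99% of genes with at least 1 count.

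The promoters of the 3 called receptors and of Tnf are shown as examples. Every member had a higher mean level with DHT, so a higher level does not set these genes apart. The promoters of Fas, Tnfrsf11a, Tnfsf8 and Tnfsf10 were searched in the same way but are not printed. RefSeq promoter sequences (GRCm38.p6) were at hand for 8 of the 10 members, matched by symbol. Cd40 and Tnfsf12 were not among them. The 250 bases before the annotated start are printed 5′ to 3′ on the gene's strand, with matches on either strand in capitals. Motifs searched were AGGTCA (the half-site of nuclear receptors such as TR4), TTCNNNGAA (the STAT element), TTTC followed by 2 bases of any kind and TTTC (an interferon response element), GAGGAA (the core of PU.1 and other Ets sites), TGANTCA (AP-1) and the kappaB consensus.
Tnfrsf1a, chr6:125349473-125349722, plus strand: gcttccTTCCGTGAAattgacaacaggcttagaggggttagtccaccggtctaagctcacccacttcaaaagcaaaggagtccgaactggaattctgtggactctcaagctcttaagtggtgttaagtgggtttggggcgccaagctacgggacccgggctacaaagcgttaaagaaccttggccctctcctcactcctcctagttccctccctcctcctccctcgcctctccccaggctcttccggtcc
Tnfrsf1b, chr4:145246871-145247120, minus strand: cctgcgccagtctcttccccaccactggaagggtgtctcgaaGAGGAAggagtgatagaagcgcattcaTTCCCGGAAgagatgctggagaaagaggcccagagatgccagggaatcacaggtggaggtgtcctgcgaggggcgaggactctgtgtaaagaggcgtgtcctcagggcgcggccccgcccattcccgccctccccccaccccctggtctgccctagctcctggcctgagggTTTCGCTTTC
Ltbr, chr6:125313886-125314135, minus strand: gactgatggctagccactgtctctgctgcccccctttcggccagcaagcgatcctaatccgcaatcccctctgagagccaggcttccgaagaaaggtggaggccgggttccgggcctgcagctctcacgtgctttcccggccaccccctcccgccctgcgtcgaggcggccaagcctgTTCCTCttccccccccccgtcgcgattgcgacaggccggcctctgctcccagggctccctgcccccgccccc
Tnf, chr17:35202008-35202257, minus strand: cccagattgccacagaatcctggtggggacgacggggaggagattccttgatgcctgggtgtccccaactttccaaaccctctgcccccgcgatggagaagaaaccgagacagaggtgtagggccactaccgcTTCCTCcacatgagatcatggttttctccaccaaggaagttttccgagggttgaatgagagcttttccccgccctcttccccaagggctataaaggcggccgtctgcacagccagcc

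Tnfrsf1a and Tnfrsf1b each held a TTCNNNGAA match, TTCCGTGAA from position -244 to -236 and TTCCCGGAA from -181 to -173 before the start, as 7.02% of all 32851 RefSeq promoters did in the same window. Tnfrsf1b also held TTTCGCTTTC from -10 to -1, an element found in 2.98% of promoters, and GAGGAA from -208 to -203. Ltbr and Tnf each held GAGGAA on the opposite strand, from -72 to -67 and from -117 to -112, as 23.3% of promoters held it on either strand. Among the 8 promoters, Fas had a further TTCNNNGAA match and a TGANTCA match, and Tnfrsf11a, Tnfsf8 and Tnfsf10 had none of the motifs. AGGTCA, present in 14.0% of promoters, and the kappaB consensus, present in 7.25%, were not found in these windows of any of the 8. These matches are letters in a short window and were not tested against the fold changes.

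The remaining genes of the superfamily were taken from a fixed list. Counting the 10 members, 18 ligands were listed, of which 7 were tested and 1 was called higher. Of 28 receptors, 21 were tested and 4 were called higher, among them the members Tnfrsf1a, Tnfrsf1b and Ltbr. None of the 7 ligands and 21 receptors tested was called lower by edgeR, and the untested ones could not be called in either direction. Over all tested genes, 5.22% were called higher and 0.261% lower. The median log2 fold change was 0.10 over the tested ligands and 0.40 over the tested receptors, beside 0.01 over all tested genes. Of the 21 receptors, 20 had a positive log2 fold change, as did 52.4% of all tested genes. The ligand list was mostly out of reach, with 14 of 18 ligands under 1 CPM with void, against 13 of 28 receptors.

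The called ligand was Tnfsf13b, which encodes the B cell survival factor BAFF. It ranged from 1.501 to 1.85 CPM with void and from 2.10 to 3.64 CPM with DHT, without overlap, as 5.39% of all tested genes did upward. Tnfsf13b rose by 0.75 on the log2 scale (SE 0.16, edgeR adjusted p = 0.0187). Its call was lost without void replicate 11, void replicate 4 or DHT replicate 1, with adjusted p between 0.0562 and 0.0612. The called receptor outside the 10 was Eda2r, the receptor for ectodysplasin A2. Eda2r had the largest log2 fold change of the tested receptors, 1.26 (SE 0.25, edgeR adjusted p = 0.0137), from 0.706 ± 0.240 to 1.68 ± 0.448 CPM (SD, n = 5 each), and was called in all 10 fits with 1 mouse left out. The receptor with the lowest log2 fold change, Tnfrsf25 (death receptor 3, named after its values were seen), was at -0.60 (SE 0.20, edgeR adjusted p = 0.109), and DESeq2 gave -0.63 with an adjusted p of 0.0312. Without void replicate 11 its adjusted p in edgeR was 0.0393.

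Partners of the members were looked at after their values were seen. For the called receptors, Lta was at 0.139 CPM with void and 0.231 CPM with DHT, and Ltb at 0.385 and 0.347 CPM. Tnfsf14, which encodes LIGHT, was at 0.00599 and 0.0354 CPM. The groups overlapped for each of these ligands. Fasl, the partner of Fas, was at 0.0676 and 0.116 CPM, and Cd40lg and Tnfsf11, the partners of Cd40 and Tnfrsf11a, were under 0.1 CPM in both groups on average. The receptors of the ligands were better detected. Tnfrsf12a, the receptor of TWEAK, was at 1.67 CPM with void and 2.52 CPM with DHT (adjusted p = 0.212, edgeR). Tnfrsf10b, the TRAIL receptor, was at 0.786 and 1.09 CPM (adjusted p = 0.177), and Tnfrsf8, which encodes CD30, at 1.17 and 1.42 CPM (adjusted p = 0.779). Tnfsf4 had 0 counts in every library, which allows up to 0.0637 CPM in the deepest library and 0.110 CPM in the shallowest, taking 3 counts as the limit.

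**Figure D3:**
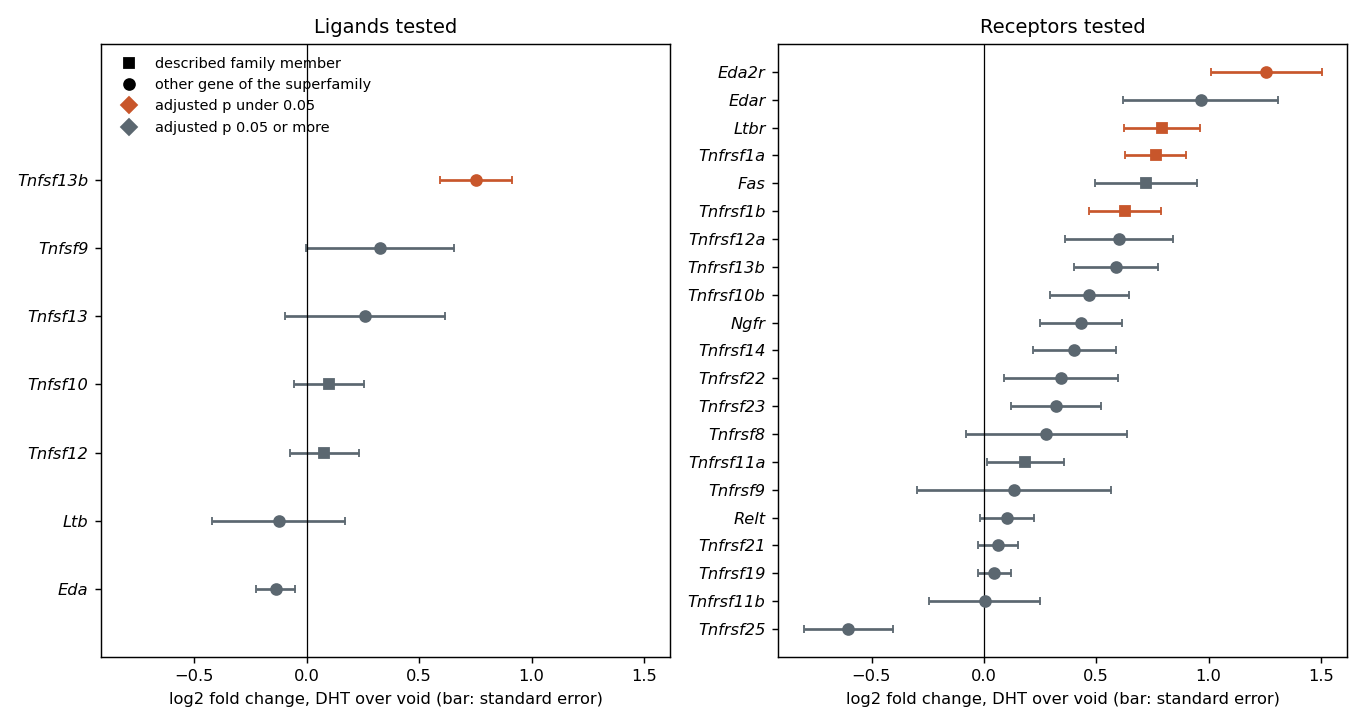
Log2 fold change, DHT over void, of the 7 ligands (left) and 21 receptors (right) that were tested, with standard errors from edgeR. Orange marks an adjusted p under 0.05 and squares mark the 7 members that were tested. Tnf, Cd40 and Tnfsf8 were not tested and are not shown. Of the receptors, 4 are orange and 20 of 21 lie above 0, and the single orange ligand is Tnfsf13b.

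Downstream of the receptors, 32 genes of the receptor complexes and their adaptors were all tested, and 2 were called higher and 0 lower in edgeR (8 higher and 0 lower at an unadjusted p under 0.05, 3 higher and 0 lower in DESeq2). The share called, 2 of 32, was near the 5.22% of all tested genes, of which 2316 were higher at an unadjusted p under 0.05 and DESeq2 called 1228 of 20054 higher. Casp8, the caspase that FADD recruits, rose from 3.32 ± 0.446 to 5.97 ± 1.34 CPM (SD, n = 5 each), by 0.85 on the log2 scale (SE 0.16, edgeR adjusted p = 0.0119). Its groups did not overlap, a separation upward seen in 5.39% of all tested genes. Cflar encodes c-FLIP, which competes with caspase 8 for FADD. It rose from 30.5 ± 2.43 to 41.1 ± 5.65 CPM, by 0.43 on the log2 scale (SE 0.09, edgeR adjusted p = 0.0223). The Cflar call was lost without void replicates 10, 11 or 5 or DHT replicates 1 or 3, with adjusted p between 0.0530 and 0.0992. The median log2 fold change over the 32 genes was 0.10.

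Of 9 genes that act in TNF shedding and in decay of its mRNA, all were tested, 1 was called higher and 0 lower (6 higher and 0 lower at an unadjusted p under 0.05, 2 higher and 0 lower in DESeq2). Over all tested genes, 5.22% were called higher, and 2316 of 17622 were higher at an unadjusted p under 0.05. DESeq2 called 1228 of 20054 genes higher. Zfp36l1, which encodes a protein that promotes decay of AU-rich mRNAs, rose from 36.2 ± 2.48 to 46.3 ± 4.42 CPM (SD, n = 5 each). The log2 fold change was 0.36 (SE 0.08, edgeR adjusted p = 0.0190). Its call was lost without void replicate 11, void replicate 4 or DHT replicate 1, with adjusted p between 0.0540 and 0.0920.

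Of 22 listed genes that respond to TNF in many cell types, 18 were tested, 7 were called higher and 0 lower (9 higher and 0 lower at an unadjusted p under 0.05, 10 higher and 0 lower in DESeq2), and 4 of the 7 had a log2 fold change above 1. Over all tested genes, 5.22% were called higher, and 2.17% were called with a log2 fold change above 1. At an unadjusted p under 0.05, 2316 of 17622 genes were higher, and DESeq2 called 1228 of 20054 higher. The chemokine Cxcl10 rose from 0.642 ± 0.415 to 5.39 ± 2.73 CPM (SD, n = 5 each), with a log2 fold change of 3.11 (SE 0.49, edgeR adjusted p = 0.00761). Ccl5, a chemokine for T cells and monocytes, had a log2 fold change of 2.96 (SE 0.57, edgeR adjusted p = 0.0130). The cytokine Il1b had 1.63 (SE 0.30, edgeR adjusted p = 0.0117), and the adhesion molecule Icam1 had 1.01 (SE 0.20, edgeR adjusted p = 0.0133), all in edgeR. Ccl5 had 25 counts in all void and 238 in all DHT libraries, and Il1b had 31 and 111. For both, most void-treated mice were under the filter's limit of about 0.292 CPM and every DHT-treated mouse was above it. Both therefore entered the test, and the numbers of genes called, through the DHT group. The Ccl5 groups overlapped, with DHT replicate 2 at 0.321 CPM and void replicate 10 at 0.332 CPM. The other called genes, Tnfaip2, Vcam1 and Csf1, named after their values were seen, had log2 fold changes of 0.43 to 0.96. The NF-kB feedback genes Nfkbia and, from the adaptor list, Tnfaip3 had log2 fold changes of 0.17 and -0.05. They did not pass (edgeR adjusted p = 0.639 and 0.901). Nfkbie, Nfkb2 and, from the adaptor list, Birc3 had log2 fold changes of 0.44, 0.64 and 0.70. These did not pass in edgeR (adjusted p = 0.0545, 0.0582 and 0.0516) but passed in DESeq2 (adjusted p = 0.0331, 0.0120 and 0.0144). All of these NF-kB genes were named after their values were seen. Many listed genes also respond to interferons or to other signals, and the list was made with earlier results of these data known.

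The members were also fitted with the microglia or the choroid plexus markers, as their mean log2 CPM per mouse, as a covariate. With the choroid plexus covariate, the log2 fold change was 0.58 (standard error 0.23) for Tnfrsf1a, 0.56 (0.28) for Tnfrsf1b and 0.49 (0.26) for Ltbr. With the microglia covariate it was 0.19 (0.24) for Tnfrsf1a, -0.011 (0.30) for Tnfrsf1b and 0.54 (0.37) for Ltbr. In neither fit did any member, or any of the 17622 genes, pass the adjusted p in edgeR, while 944 genes were higher and 237 lower at an unadjusted p under 0.05 with the choroid plexus covariate and 182 and 104 with the microglia covariate. Both marker levels differed between the groups without overlap, so treatment and marker level cannot be told apart in these fits. Without void replicate 9, the void-treated mouse with the highest choroid plexus sum, 3 members were called higher. That mouse was the void-treated mouse nearest the DHT range, so leaving it out cannot tell treatment and choroid plexus level apart.

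**Figure D4:**
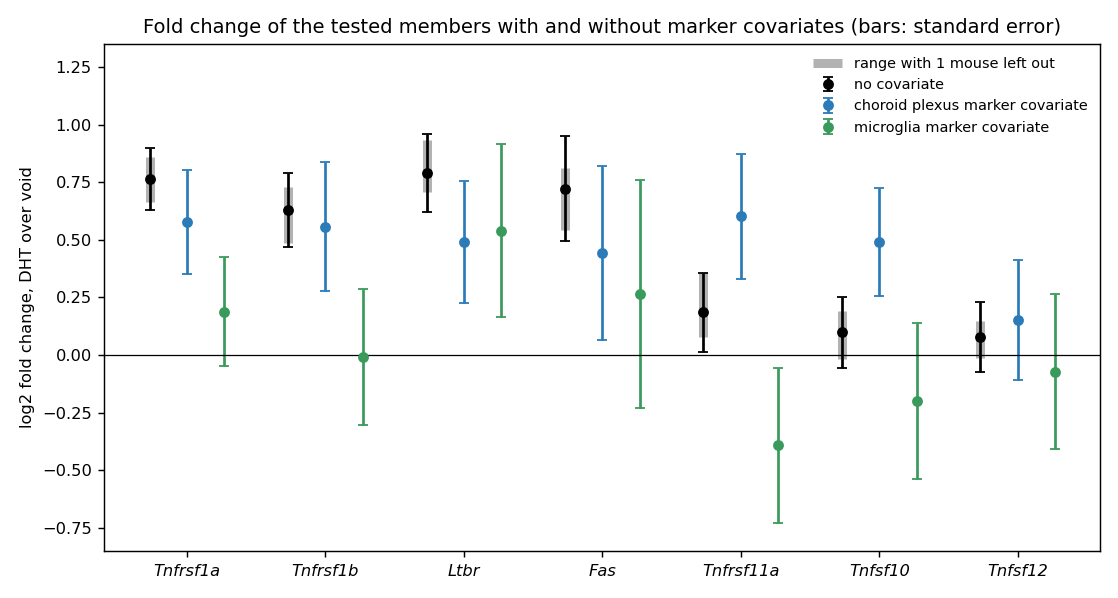
Log2 fold change, DHT over void, of the 7 tested members without a covariate (black, with the range over 10 fits that each left out 1 mouse in grey), with the choroid plexus marker covariate (blue) and with the microglia marker covariate (green), bars giving standard errors. With the microglia covariate Tnfrsf1b is at -0.011 and Ltbr at 0.54.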

How the data were processed

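Bulk RNA-seq libraries (mRNA HyperPrep) from 10 hippocampi were used. The authors trimmed reads with HTStream, aligned them with STAR 2.7.10b and deposited raw counts per gene, with no normalization. The methods name mm10 and the submitters' processing notes mm39 and GRCm39. The annotation release and the handling of strand and of shared reads are not given in the sources used here. Of 56884 gene identifiers, 51948 had a symbol in GENCODE M21, 35 with the same version, so that reference served only for names, exon lengths and overlaps.

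Groups came from the sample titles. The main test was the quasi-likelihood test of edgeR 4.0.16 under R 4.3.3, after TMM and filterByExpr by group, with p-values adjusted over all genes tested (Benjamini-Hochberg), with DESeq2 1.42.0 as an alternative. The standard error (SE) was obtained from each log2 fold change and its F statistic, as their quotient with the root of F. Marker means used a prior count of 2. Both count tests were tested on simulated data. Libraries of a group differed by more than sampling noise (chi-square per degree of freedom of 9.97 or more).

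Members and lists were chosen with earlier results of these data known. Named genes are all members and, of each pathway list, the 4 largest called rises and 2 largest called falls; others are said to be chosen after their values were seen. Numbers of counts limit precision, and limits from counts cover counting error only.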

Additional observations from a re-analysis of the deposited data

Results flagged for a closer look

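Groups of 5 mice were searched for a mouse whose gap to its nearest neighbour was over 0.71 of the group's range, for the 19 genes named by rule, 38 groups in all, of which chance gives about 5%. This held in 1 group. Tnf in DHT replicate 6 was the highest of the DHT-treated mice, at 0.387 CPM, with the nearest mouse at 0.209 CPM and a gap of 0.739 of the range, and these levels rest on 13 and 7 counts.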

How the results depend on the processing

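The count of members called higher, 3 in the main fit, was 5 with DESeq2 (adding Fas and Tnfsf8), 5 over genes with at least 1 count (adding Tnf and Tnfsf8), and 0 with a log2 fold change beyond 1, with the choroid plexus covariate and with the microglia covariate. With either covariate, the counts of other ligands, other receptors, adaptors, TNF release genes and TNF response genes called higher all became 0. The fold limit left 0 ligands, 0 adaptors, 0 release genes and 4 response genes. DESeq2 called 1 other receptor lower and 2 release genes higher, and requiring 10 counts in every library also gave 2 release genes. With 1 mouse left out, the calls ranged from 1 to 3 for members, 0 to 1 for other ligands, 1 to 2 for other receptors higher, 0 to 1 for other receptors lower, 1 to 3 for adaptors, 0 to 1 for release genes and 5 to 8 for response genes. The lowest count of members, 1, came without void replicate 11, void replicate 4 or DHT replicate 1. Signs reversed with the microglia covariate for Tnfrsf1b (-0.011), Tnfrsf11a (-0.39), Tnfsf10 (-0.20) and Tnfsf12 (-0.072). With 1 mouse left out, Tnfsf10 ranged from -0.017 (without DHT replicate 3) to 0.19, and Tnfsf12 from -0.014 (without DHT replicate 6) to 0.15, with -0.010 without void replicate 4. Over all genes, 920 were called higher and 46 lower in the main fit, 1228 and 233 with DESeq2, and 351 to 1072 and 5 to 77 with 1 mouse left out. The fold limit is stricter by construction, and for the other changes the cause was not tested. Leaving out mice in the fit over genes with at least 1 count was chosen after seeing the data. No paired analysis was possible because replicate 5 is the single number found in both groups. The depth limits Tnf, Cd40, Tnfsf8 and most other ligands.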
